A study of Mus musculus with 8 samples.

Results

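The constitutive proteasome subunits were followed as 1 group of genes in mouse leukaemic bone marrow. They were chosen by name, as every entry of the expression matrix whose symbol is Psma, Psmb, Psmc or Psmd followed by a number, leaving out the 3 immunoproteasome subunits Psmb8, Psmb9 and Psmb10. The rule gave 36 of the 23997 entries, of which 16 encode the core particle (8 Psma and 8 Psmb genes) and 20 encode the regulatory particle or its assembly factors (Psmc and Psmd genes). The study sequenced RNA from 8 libraries of C57BL/6 bone marrow taken after mice had died of leukaemia. Donor marrow was collected from mice given 5FU (5-fluorouracil), cultured with IL3, IL6 and SCF, transduced, and put into lethally irradiated recipients. The 3 libraries called AE+Meis2 came from cells given AML1-ETO together with Meis2 (median latency 171 days), the 3 called AE9a+Meis2 from cells given AML1-ETO9a with Meis2 (102 days), and the 2 called AE9a from cells given AML1-ETO9a alone (138 days). AML1-ETO is the fusion of the transcription factor RUNX1 with the corepressor RUNX1T1 found in human acute myeloid leukaemia, AML1-ETO9a is a shorter splice form of it, and Meis2 is a homeobox transcription factor. All 3 groups therefore carry a form of the fusion, and no library is normal marrow or carries Meis2 alone. The labels do not say whether any libraries shared a donor or a recipient, what share of the marrow was still host cells, or whether cells were sorted, so a p-value here measures the spread between these libraries.

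The proteasome is the main machine that degrades ubiquitin-tagged proteins in the cytosol and nucleus. Its barrel-shaped core is built from outer rings of alpha subunits, which gate the entry, and inner rings of beta subunits, of which Psmb5, Psmb6 and Psmb7 carry the catalytic sites. The regulatory particle caps the barrel: its base holds the ring of Psmc ATPases that unfold the substrate, and its lid holds Psmd14, the enzyme that removes ubiquitin chains. Psmb5 is the site bound by proteasome inhibitors such as bortezomib, used against blood cancers. In immune cells, Psmb8, Psmb9 and Psmb10 can take the places of Psmb5, Psmb6 and Psmb7 and form the immunoproteasome.

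Values are FPKM (sequenced fragments counted per gene, divided by the length of the transcript and by the library's mapped total), so levels can be compared between genes, but no read totals come with them and the depth behind each value is unknown. The library labelled AE+Meis2 replicate 1 went against its label: Meis2 was at 13.1 FPKM there, against 38.2 and 81.5 in the other AE+Meis2 libraries, 604 to 1277 in AE9a+Meis2, and 6.99 and 13.2 in AE9a. Runx1t1, the fusion partner, was at 21.6 there, against 223 and 218 in the other AE+Meis2 libraries and 10.3 to 26.8 in the libraries given AML1-ETO9a. Values for AE+Meis2 include this library unless it is said to be left out, and the particle medians, the ring medians, the spread within the group and the comparison lists are given both ways. In AE9a+Meis2 replicate 3 and AE9a replicate 1, 84.1% and 72.1% of 1543 genes of families that marrow keeps silent had values above 0, against 3.37% to 6.61% elsewhere. Small RNA entries took 8.66% to 37.9% of the summed FPKM of a library. The pan-leukocyte gene Ptprc was at 39.4 to 298 FPKM in all 8 libraries. In bulk marrow, fewer cells of a type and less RNA per cell cannot be told apart.

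The core and the regulatory particle were expressed in every library, the core at the higher level. Of the 36 members, 34 were well above background everywhere, and the exceptions were the germ-cell alpha subunit Psma8 and the thymus beta subunit Psmb11. The core members had a median level of 143 FPKM and the regulatory members one of 61.0 (15 and 20 genes that passed a filter of 1 FPKM in 2 libraries), and within a library the core median was 2.17 to 2.57 times the regulatory one. The highest core medians were those of Psmb1 (191 FPKM) and Psma2 (185). Among regulatory members, the lid subunit Psmd8 had the highest median (109), and the 3 lowest were the assembly chaperones of the base, Psmd9 (10.9), Psmd10 (21.3) and Psmd5 (26.3), which are not part of the finished particle. The next lowest was the lid subunit Psmd11 (34.7).

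**Figure D1:**
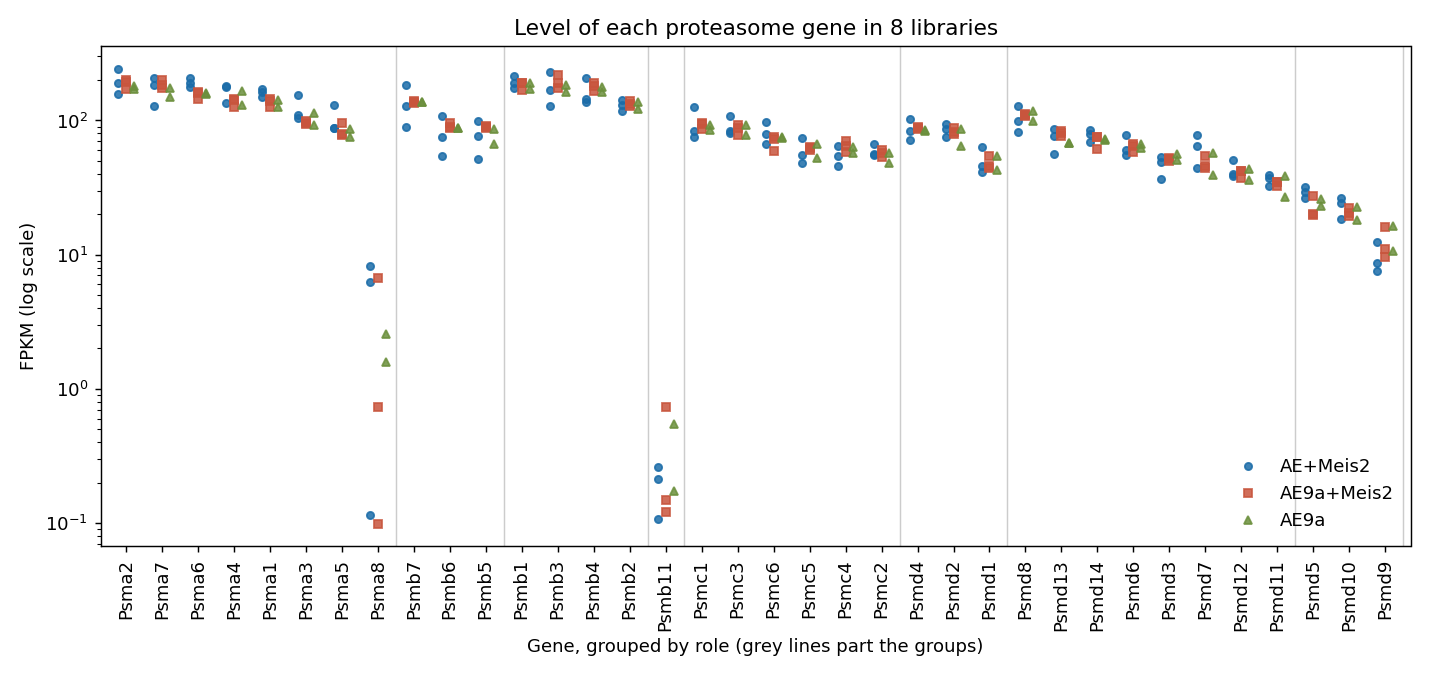
FPKM (log axis) of the 36 genes, grouped by role from the alpha ring at the left to the assembly chaperones at the right, with 1 point per library and 1 colour and shape per group. The 34 widely expressed members lie between 7.57 and 243 FPKM, with the core above the regulatory particle, and Psma8 and Psmb11 lie far below them.

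Psma8, which replaces Psma7 in the testis proteasome, had levels of 0.114, 8.23 and 6.28 FPKM in AE+Meis2, 6.69, 0.727 and 0.0990 in AE9a+Meis2, and 2.58 and 1.59 in AE9a. High and low libraries stood side by side in both Meis2 groups, so the groups overlapped in full. Psmb11, the catalytic subunit of cortical thymic epithelium, was the single member under the filter, with 0.107 to 0.263 FPKM in AE+Meis2, 0.121 to 0.729 in AE9a+Meis2, and 0.547 and 0.172 in AE9a. Its highest values were in AE9a+Meis2 replicate 3 and AE9a replicate 1, the libraries with values in silent gene families, and the part of that in the result was not tested.

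The catalytic beta subunits varied most among the widely expressed core genes. Psmb5 (chr14:54614119-54618022, minus strand, mm10) had levels of 99.1, 51.3 and 76.8 FPKM in AE+Meis2, 87.3, 90.3 and 88.9 in AE9a+Meis2, and 67.0 and 86.1 in AE9a. Psmb6 (chr11:70525367-70527858, plus strand) was at 108, 54.6 and 75.8, then 96.3, 90.2 and 87.7, then 87.7 and 87.7 in the same order. Psmb7 (chr2:38588036-38644087, minus strand) was at 185, 90.1 and 129, then 137, 141 and 134, then 136 and 138. All 3 were highest in AE+Meis2 replicate 1 and lowest in AE+Meis2 replicate 2, with every library of the other groups between these extremes. The ratio of those replicates was 1.93 for Psmb5, 1.97 for Psmb6 and 2.06 for Psmb7. The GENCODE annotation holds 1, 2 and 1 pseudogenes named for Psmb5, Psmb6 and Psmb7, and none for the other members, so reads could be split between these copies.

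The ubiquitin-facing subunits of the regulatory particle were steadier. Psmd14, the deubiquitinase of the lid (chr2:61711694-61800376, plus strand), had levels of 84.8, 68.9 and 78.9 FPKM in AE+Meis2, 75.2, 74.8 and 61.1 in AE9a+Meis2, and 71.7 and 72.6 in AE9a. Psmd4, a ubiquitin receptor of the base (chr3:95032694-95042614, minus strand), was at 103, 71.2 and 83.0, then 89.3, 86.1 and 88.0, then 84.7 and 83.6. For both genes the AE+Meis2 libraries spread over more than the difference between group means, and all other values lay inside that spread except the 61.1 of Psmd14 in AE9a+Meis2 replicate 3.

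As a group the members varied less between libraries than most genes. The range over 8 libraries, on the log2(FPKM + 1) scale used for all differences here, had a median of 0.70 for the core and 0.60 for the regulatory particle, and 32 of the 35 members that passed the filter (91.4%) stayed under 1, a change of 2-fold. Over all 12565 genes tested the median range was 1.16 and 41.3% stayed under 1, and over the 4317 genes with a median of at least 20 FPKM it was 0.985 and 50.9%. The exceptions among members were Psma8, Psmb7 and Psmd9. The median SD within groups was 0.204 for the members, 0.375 for all genes and 0.319 for genes of at least 20 FPKM. A range that narrow was not particular to the proteasome in these libraries: the median range was 0.51 for the 9 genes of the COP9 signalosome, a complex built like the lid, and 0.60 for the 8 genes of the chaperonin that folds actin and tubulin.

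Promoters of the members are shown because proteasome genes are known to be induced together by NFE2L1 through antioxidant response elements, and because the introduced factors bind RUNX and MEIS motifs. RefSeq promoter windows (GRCm38.p6, the build the authors call mm10), from 250 bases before to 50 bases after the start, were at hand for 29 of the 36 members, in 31 windows. The 120 bases before the RefSeq start are printed 5′ to 3′ on the gene's strand, in lower case, with matches of the 1 motif named for each gene in capitals. Matches of the other motifs stay in lower case, such as the RUNX match of Psmb5. The first pair carry the antioxidant element core (TGACNNNGC, either strand) and belong to catalytic subunits. The next pair carry the ETS motif (CCGGAAG, either strand) and belong to the regulatory particle. The last carries a CCAAT box (CCAAT, either strand) and belongs to the alpha ring.
Psmb5, chr14:54617996-54618115, minus strand: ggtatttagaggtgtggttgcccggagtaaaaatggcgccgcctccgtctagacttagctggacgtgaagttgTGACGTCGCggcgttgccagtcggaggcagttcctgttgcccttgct
Psmb6, chr11:70525237-70525356, plus strand: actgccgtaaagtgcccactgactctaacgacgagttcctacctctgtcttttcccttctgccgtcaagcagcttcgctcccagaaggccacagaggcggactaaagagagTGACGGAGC
Psmd2, chr16:20651532-20651651, plus strand: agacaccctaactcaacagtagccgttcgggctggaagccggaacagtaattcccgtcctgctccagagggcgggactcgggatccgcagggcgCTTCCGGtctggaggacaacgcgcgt
Psmd11, chr11:80428495-80428614, plus strand: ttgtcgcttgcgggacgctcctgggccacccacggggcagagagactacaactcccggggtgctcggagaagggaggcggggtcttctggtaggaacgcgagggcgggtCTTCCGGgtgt
Psma1, chr7:114276117-114276236, minus strand: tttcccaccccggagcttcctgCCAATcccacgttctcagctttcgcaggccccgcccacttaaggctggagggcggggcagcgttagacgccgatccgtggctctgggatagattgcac

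The ETS motif was the one whose share stood furthest from that of all promoters. It was in 11 of the 31 member windows (35.5%) and in 8.86% of all 32851 windows, and the genes that held it were 9 of 17 regulatory members and 1 of 12 core members. CCAAT boxes were in 12 windows (38.7%, against 37.4% of all), with 7 of 12 core genes and 5 of 17 regulatory genes. The antioxidant core was in 5 windows (16.1% against 12.4%), the RUNX motif TGTGGT in 4 (12.9% against 16.8%) and the MEIS motif TGACAG in 6 (19.4% against 19.2%). These are matches of letters in a window, with 1 window in which matches of 2 motifs overlapped, and the windows compared with were not matched for base composition or expression.

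The pattern that the members shared lay inside the AE+Meis2 group. In the library labelled AE+Meis2 replicate 1, all 14 widely expressed core genes and all 20 regulatory genes were above their own mean over the 8 libraries. The median deviation there was 0.302 for the core and 0.265 for the regulatory particle, against -0.016 over all genes tested and 0.042 over genes of at least 20 FPKM. Of the 34 genes, 27 had their highest value in that library (13 core and 14 regulatory), as had 11.7% of genes of at least 20 FPKM. All 34 also stayed above their own means there after quantile scaling and after rescaling without small RNA entries, but the number of members highest there was 12 and 17 under these, and after quantile scaling AE9a replicate 1 held the maximum of 14.

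On the FPKM as deposited, AE+Meis2 replicate 2 was the opposite for the beta subunits, while the alpha ring was near its own mean there at the median. The median deviation of the 3 catalytic subunits there was -0.62, and that of the 4 other beta subunits -0.23, while that of the alpha ring was 0.036. Psmb3, a structural subunit of the beta ring, was at 129 FPKM there, against 231 and 170 in the other AE+Meis2 libraries, 218, 189 and 173 in AE9a+Meis2, and 183 and 163 in AE9a. Psma4 was at 179 against 178 and 134, and Psmd7, a scaffold of the lid, reached its maximum of 77.7 against 64.2 and 44.1. Across the group, replicate 1 was above replicate 2 for 13 of 14 core and 17 of 20 regulatory genes, with Psma4, Psmd5, Psmd7 and Psmd11 the other way. Within the alpha ring the ratio of replicate 1 to replicate 2 ran from 0.990 for Psma4 to 1.625 for Psma7, so its genes differed. Which library was low depended on the scaling. As deposited, 15 of the 34 members were lowest in replicate 2 and 3 in replicate 3. After quantile scaling these counts were 9 and 23, and after rescaling without small RNA entries 0 and 34. The core median deviation in replicate 3 was then -0.339 and -0.655, beside -0.0575 and -0.537 for all genes tested.

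**Figure D2:**
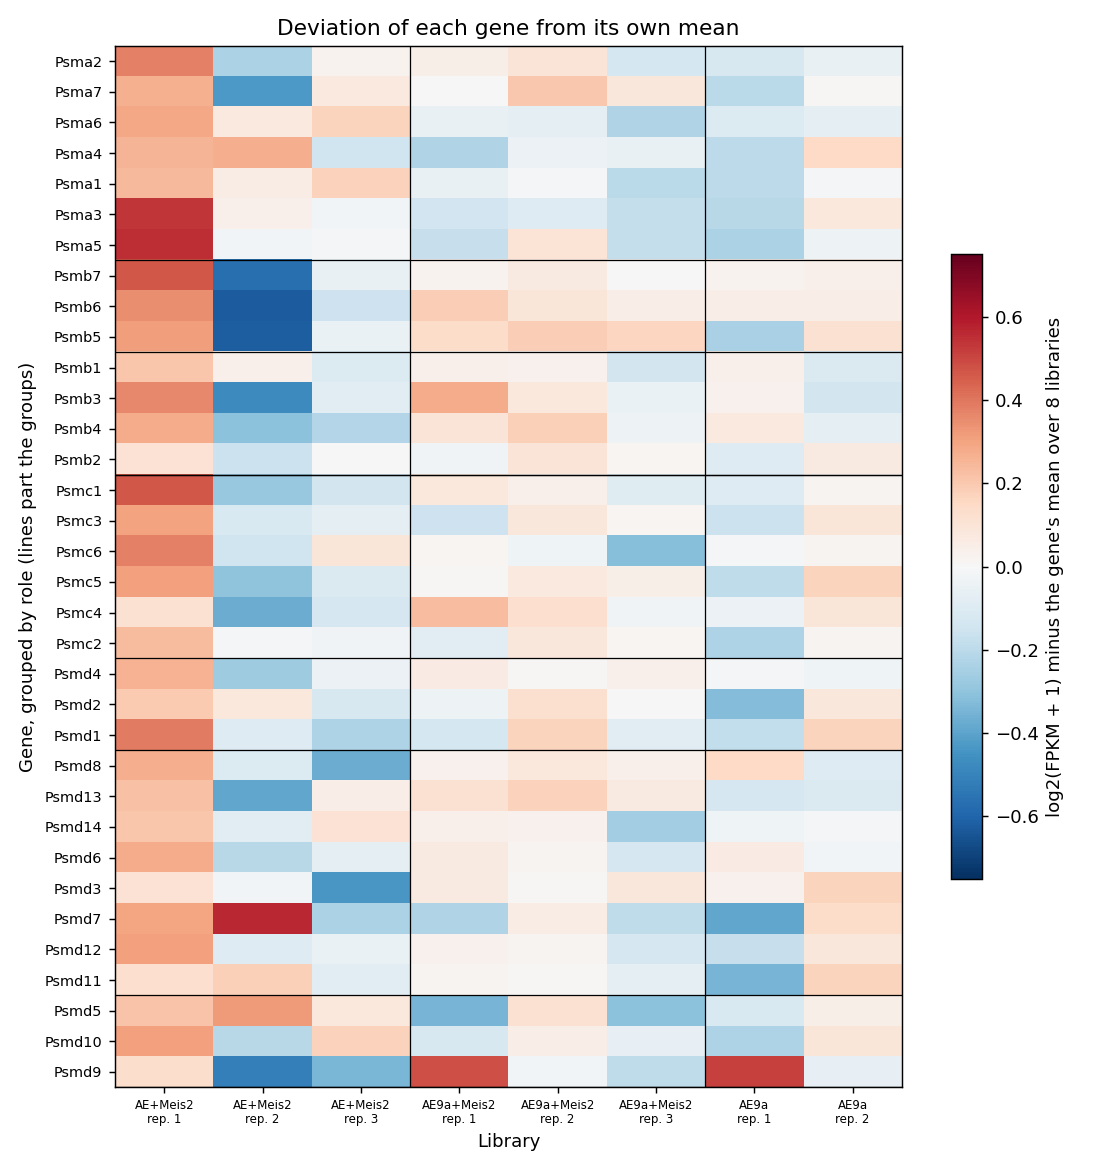
Colour gives each gene's log2(FPKM + 1) in a library minus its own mean over the 8 libraries (red above, blue below), for the 34 widely expressed members in rows grouped by role and the libraries in columns. The first column is above 0 for all 34 genes, and the second is lowest at the 3 catalytic beta subunits, with a median of -0.62.

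The spread inside AE+Meis2 was larger than the differences between group means for most members when all its libraries were used. The range within AE+Meis2 exceeded the range between the 3 group means for 12 of 14 core genes, all but Psma1 and Psma6, and for 19 of 20 regulatory genes, all but Psmd5. Means of 2 or 3 libraries spread less than single libraries do, and the share over all genes was not computed. These counts therefore do not set the members apart from other genes. For the core, the median range was 0.578 within AE+Meis2, 0.180 within AE9a+Meis2, 0.168 within AE9a and 0.213 between group means. For the regulatory particle these were 0.516, 0.170, 0.246 and 0.164. A range grows with the number of libraries, which was 3 in each group given Meis2 and 2 in AE9a. The same holds for AE+Meis2 with and without 1 of its libraries, so these ranges are not directly comparable. With the library labelled AE+Meis2 replicate 1 left out, the range within AE+Meis2 was the larger for 8 of 14 core and 9 of 20 regulatory genes, with medians of 0.213 within and 0.230 between for the core and 0.210 and 0.175 for the regulatory particle. The cell-type markers of the same libraries differed widely as well. The summed FPKM of 7 erythroid genes was 507 to 4964 in AE+Meis2, 1111 to 3128 in AE9a+Meis2, and 1375 and 2436 in AE9a, with the maximum in AE+Meis2 replicate 1. The sum of 4 megakaryocyte genes was 350 in AE+Meis2 replicate 2 and 11.6 to 93.8 elsewhere. The sum of 7 granulocyte genes was lowest in that library (462) and highest in AE+Meis2 replicate 3 (27136), against 961 to 6331 in the other groups. None of these markers was at 0 in any library, and their part in the proteasome levels was not tested.

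The first comparison, AE9a+Meis2 with AE9a, asks what adding Meis2 to the short fusion form did. No member passed limma's test (adjusted p under 0.05 over all genes), with 0 of 35 called and 0 at an unadjusted p under 0.05, where 0.0478% of all genes (6 of 12565) were called and 385 were under the unadjusted threshold. The core genes were higher in 11 and lower in 4, with a median log2 difference of 0.043, and the regulatory genes higher in 13 and lower in 7, with a median of 0.022, beside -0.001 for all genes. Quantile scaling turned the core median to -0.176, and without AE9a replicate 1 the counts higher were 7 of 15 and 6 of 20. Libraries of the groups did not overlap for 3 members, each higher with Meis2 (Psmb5, Psmd4 and Psmd13), and for none lower, where 13.1% and 10.7% of all genes separated in these directions.

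Psmb5 differed by 0.22 ± 0.28 on the log2 scale (SE, 95% interval -0.44 to 0.89; limma adjusted p = 1), with AE9a replicate 1 the low library. Psmb6 differed by 0.06 ± 0.28 (interval -0.59 to 0.71) and Psmb7 by 0.00 ± 0.29 (interval -0.67 to 0.68). The member with the smallest p was Psmd13, a lid subunit, at 80.1, 83.4 and 77.3 FPKM in AE9a+Meis2 and 67.6 and 68.5 in AE9a, a difference of 0.23 ± 0.21 (limma adjusted p = 1). Psma7, the alpha subunit that Psma8 replaces, was at 173, 200 and 185 against 151 and 174, a difference of 0.19 ± 0.24. Psmd2, the largest scaffold of the base with Psmd1, was at 79.6, 88.6 and 81.7 against 65.0 and 86.7. None of these differences passed the test, whose spread is pooled over all 8 libraries and so includes the AE+Meis2 group. For Psmd13 the range was 0.11 within AE9a+Meis2 and 0.02 within AE9a, but 0.61 within AE+Meis2. When only the 2 groups compared were fitted, Psmd13 had the smallest limma adjusted p of a member, 0.81.

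The second comparison, AE+Meis2 with AE9a+Meis2, sets the full fusion against the short form, both given Meis2. The Meis2 level was not equal, at 13.1 to 81.5 FPKM in AE+Meis2 and 604 to 1277 in AE9a+Meis2. Median latency was 171 and 102 days. The fusion form cannot be told apart from these in this comparison. Again 0 of 35 members were called by limma and 0 reached an unadjusted p under 0.05, beside 0.0398% of all genes called (5 of 12565) and 898 under the unadjusted threshold. Core genes were higher in 8 and lower in 7 (median 0.051) and regulatory genes higher in 13 and lower in 7 (median 0.029), beside a median of 0.043 for all genes. Rescaling without small RNA entries moved the all-gene median to -0.20 and the particles with it, to -0.21 and -0.23. With the library labelled AE+Meis2 replicate 1 left out, the medians were -0.11 for the core and -0.10 for the regulatory particle. Psmb6 was then under the unadjusted threshold, at a limma p of 0.046 (adjusted p = 0.53). Without replicate 2 the medians were 0.16 and 0.10, so single libraries set the sign.

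Inside the core, the alpha and catalytic beta genes differed in sign in this comparison. The alpha ring was higher in 7 of 8 genes with a median difference of 0.25, while the catalytic beta genes were lower in 3 of 3 with a median of -0.25, and neither set held a called gene. The difference between the sets was not tested. Relative to the all-gene median, the alpha ring stayed 0.090 above under quantile scaling and 0.198 above after rescaling, and the catalytic genes 0.429 and 0.308 below. The beta side depended on the library left out: without AE+Meis2 replicate 2 the catalytic median was -0.01, with 1 of 3 genes higher. Replicates 2 and 3 of AE+Meis2 were each below every AE9a+Meis2 library for Psmb5, Psmb6 and Psmb7, and replicate 1 was above. The alpha median without replicate 1 was 0.16 (6 of 8 higher) and without replicate 2 was 0.26. The catalytic median without replicate 1 was -0.49, with 3 of 3 lower.

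For 3 alpha genes all AE+Meis2 libraries were above all AE9a+Meis2 libraries, and for no member the reverse, where 7% of all genes separated upward and 6.49% downward. Psma6 (chr12:55384222-55418454, plus strand) was at 206, 178 and 190 FPKM against 163, 161 and 144, a difference of 0.29 ± 0.15 (95% interval -0.05 to 0.64; limma adjusted p = 0.73). Psma3 was at 156, 110 and 105 against 96.5, 99.8 and 94.3, a difference of 0.32 ± 0.20 that was led by replicate 1 and was 0.15 without it. Psma1 was at 171, 150 and 163 against 139, 144 and 126, a difference of 0.25 ± 0.15. Among regulatory genes the smallest p was that of Psmd5 (chr2:34849734-34874968, minus strand), a chaperone that holds the ATPase ring during assembly, at 29.3, 31.7 and 26.6 against 19.6, 27.4 and 20.1, a difference of 0.38 ± 0.19 (interval -0.06 to 0.83; limma adjusted p = 0.73). The ATPase Psmc4, at 64.4, 45.7 and 54.3 against 69.9, 64.8 and 58.4, differed by -0.24 ± 0.18. Psmd7 differed by 0.33 ± 0.26, from 64.2, 77.7 and 44.1 against 44.4, 54.2 and 45.5, so AE+Meis2 replicate 3 lay under every AE9a+Meis2 library. The catalytic subunits differed by -0.28 ± 0.25 for Psmb5 (interval -0.87 to 0.32), -0.25 ± 0.25 for Psmb6 and -0.09 ± 0.26 for Psmb7.

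The third comparison, AE+Meis2 with AE9a, changes both the fusion form and whether Meis2 was given. Meis2 was at 13.1 to 81.5 FPKM in AE+Meis2 and at 6.99 and 13.2 in AE9a. This comparison shares its libraries with the others, so its values are not separate evidence. Here too limma called 0 of 35 members and 0 were under an unadjusted p of 0.05, beside 0.0318% of all genes called (4 of 12565) and 752 under the unadjusted threshold. The core was higher in 9 and lower in 6 (median 0.083) and the regulatory particle higher in 14 and lower in 6 (median 0.075), beside 0.055 for all genes. These signs reversed under quantile scaling, to -0.28 and -0.20, and after rescaling, to -0.29 and -0.29 beside an all-gene median of -0.30. Without replicate 1 of AE+Meis2 they were -0.02 and -0.06.

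Psma1, Psma5, Psma6 and Psmd5 were higher in every AE+Meis2 library than in either AE9a library, and no member was lower in every one, where 9.96% and 8.66% of all genes separated in these directions. Psma6 differed by 0.26 ± 0.16, Psma1 by 0.26 ± 0.17 and Psma5 by 0.31 ± 0.23, the last from 131, 87.9 and 88.4 FPKM against 75.3 and 86.9, so that it separated only narrowly and differed by 0.12 without AE+Meis2 replicate 1. Psmd9, a chaperone of the base, had the largest difference among the widely expressed members, -0.47 ± 0.32 (95% interval -1.22 to 0.29; limma adjusted p = 0.95), from 12.4, 7.57 and 8.61 against 16.4 and 10.7. Psmd7 differed by 0.33 ± 0.29, Psmb5 by -0.05 ± 0.28, Psmb6 by -0.20 ± 0.28 and Psmb7 by -0.08 ± 0.29. The alpha ring was higher in 8 of 8 genes (median 0.26) and the catalytic genes lower in 3 of 3 (median -0.08), but quantile scaling left 2 of 8 alpha genes higher, with a median of -0.10, and leaving out AE+Meis2 replicate 2 turned the catalytic median to 0.17. With the library labelled AE+Meis2 replicate 1 left out, the alpha median was 0.10, with 6 of 8 genes higher, and the catalytic median was -0.34, with 3 of 3 lower.

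**Figure D3:**
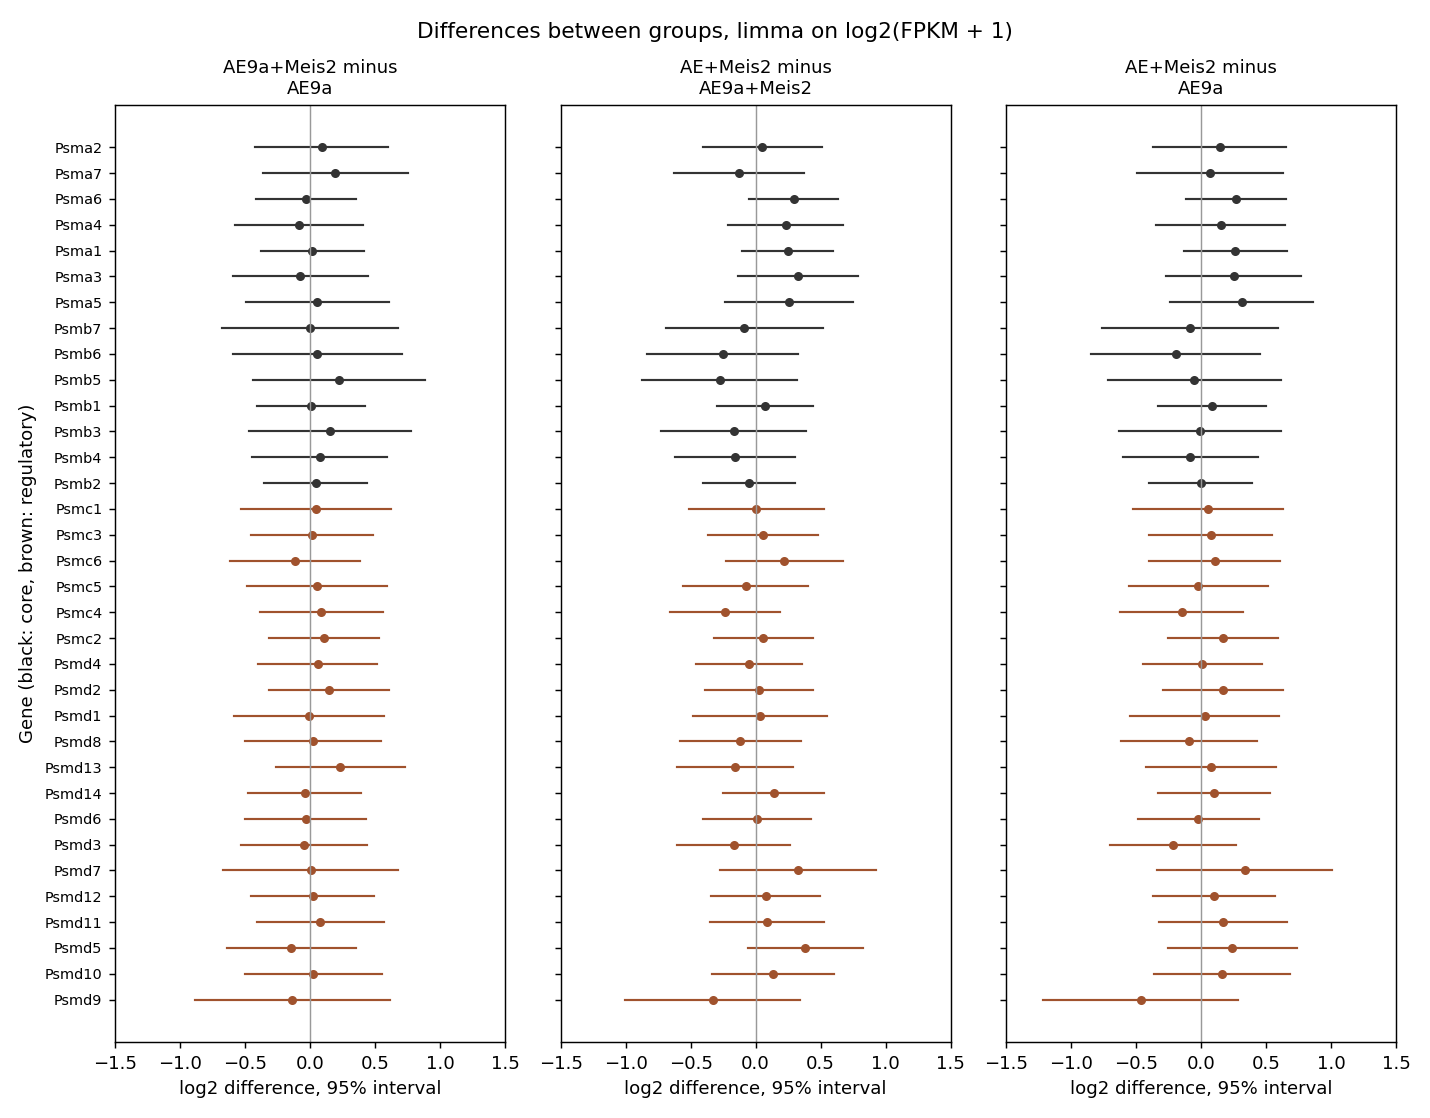
Points give limma's log2 difference and lines its 95% interval for the 34 widely expressed members in the 3 comparisons, with core genes in black and regulatory genes in brown. Every interval drawn crosses 0, and only those of Psmd9 and Psmd7 reach 1 in either direction.

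The intervals bound what these libraries could miss on the FPKM scale as deposited, with the spread pooled over the 3 groups. They do not include the choice of scaling. In the third comparison the median over the 35 members was 0.075 as deposited and -0.22 after quantile scaling. It was -0.29 after rescaling without small RNA entries. The medians of all genes were 0.055, -0.01 and -0.30 in the same order. The 95% interval lay inside a change of 2-fold in either direction for 34 of 35 members in AE9a+Meis2 against AE9a (97.1%, against 47.2% of all genes), for 33 in AE+Meis2 against AE9a+Meis2 (94.3% against 49.9%) and for 32 in AE+Meis2 against AE9a (91.4% against 43.7%). The members outside were Psma8 in all 3 comparisons, Psmd9 in the second and the third, and Psmd7 in the third. Over the 35 members the differences ran from -0.32 to 0.23, from -0.33 to 0.79 and from -0.47 to 0.47 in the 3 comparisons, with Psma8 or Psmd9 at 5 of these 6 ends. Changes smaller than the intervals cannot be told from 0 with 2 or 3 libraries a group.

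The immunoproteasome subunits were compared with the constitutive subunits they replace. Psmb8 had levels of 124, 101 and 133 FPKM in AE+Meis2, 115, 114 and 117 in AE9a+Meis2, and 89.7 and 73.2 in AE9a. Psmb9 was at 73.1, 56.9 and 108, then 64.2, 76.9 and 93.5, then 50.8 and 47.3. Psmb10 was at 46.6, 37.2 and 35.4, then 57.7, 47.3 and 54.9, then 31.3 and 34.3. All 3 were higher in every library labelled with Meis2 than in either AE9a library, but none passed the limma threshold. Of all genes, 13.1% separated upward in this way in AE9a+Meis2 and 9.96% in AE+Meis2, and the share that did so in both was not computed. The count of libraries includes AE+Meis2 replicate 1, whose Meis2 level lay within the range of the AE9a libraries. Without that library the differences between AE+Meis2 and AE9a were 0.51 for Psmb8, 0.67 for Psmb9 and 0.15 for Psmb10. The difference between AE9a+Meis2 and AE9a was 0.68 ± 0.20 for Psmb10 (limma adjusted p = 1), 0.50 ± 0.19 for Psmb8 and 0.65 ± 0.30 for Psmb9.

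The ratio of Psmb8 to Psmb5 was 1.25, 1.97 and 1.73 in AE+Meis2, 1.32, 1.26 and 1.31 in AE9a+Meis2, and 1.34 and 0.850 in AE9a. For Psmb9 over Psmb6 it was 0.678, 1.04 and 1.43, then 0.667, 0.853 and 1.07, then 0.580 and 0.539. For Psmb10 over Psmb7 it was 0.251, 0.413 and 0.275, then 0.422, 0.336 and 0.409, then 0.229 and 0.249. The last 2 pairs had every library labelled with Meis2 above both AE9a libraries, and Psmb8 over Psmb5 did not. For Psmb10 over Psmb7 the lowest of them, 0.251 against 0.249, was the library labelled AE+Meis2 replicate 1, which goes against its label. The log2 ratio of AE9a+Meis2 exceeded that of AE9a by 0.28, 0.59 and 0.68 for the pairs in this order, with exact two-sided permutation p of 0.4, 0.2 and 0.1 (adjusted p = 0.45 for each over the 9 tests made). The first of these differences turned on single libraries, with 0.60 without AE9a replicate 1 and -0.04 without AE9a replicate 2. The smallest p these group sizes allow is 0.1, so the design could not pass the threshold.

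**Figure D4:**
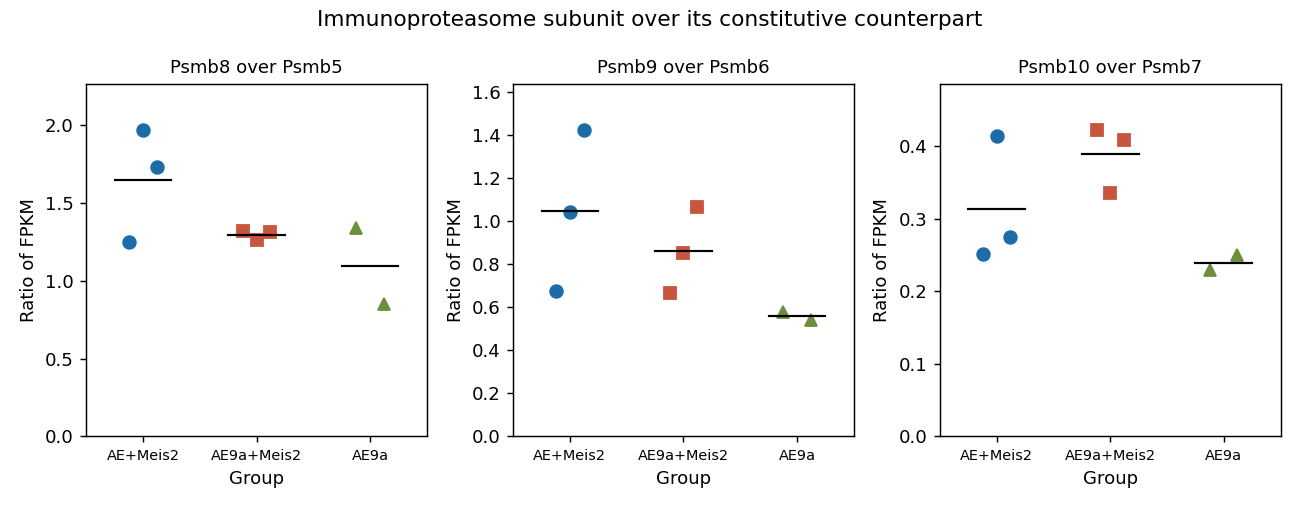
Ratio of FPKM of each immunoproteasome subunit to its constitutive counterpart, with 1 point per library, groups on the horizontal axis and a bar at the group mean. Both AE9a libraries lie under all 6 libraries labelled with Meis2 for Psmb9 over Psmb6 and Psmb10 over Psmb7. For Psmb8 over Psmb5, AE+Meis2 runs from 1.25 to 1.97.

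The genes around the proteasome were read from lists of activators, assembly factors, partners and regulators. Of the activators and the inhibitor, 0 of 5 tested were called in any comparison. Psmf1, which encodes the inhibitor PI31, had levels of 9.84, 11.7 and 7.90 FPKM in AE+Meis2, 10.7, 12.2 and 11.3 in AE9a+Meis2, and 14.5 and 15.7 in AE9a. Both AE9a libraries were above all others, with differences from AE9a of -0.59 ± 0.22 for AE+Meis2 (limma adjusted p = 0.77) and -0.38 ± 0.22 for AE9a+Meis2. Of all genes, 8.66% and 10.7% separated downward in these comparisons, and the share that did so in both was not computed. Psme2, a subunit of the 11S activator, exceeded its AE9a level by 0.63 ± 0.29 in AE+Meis2 and by 0.39 ± 0.29 in AE9a+Meis2, with 65.6 and 88.5 FPKM in AE9a and 75.9 to 140 in the other libraries. Its partner subunit Psme1 stood at 419 FPKM in AE+Meis2 replicate 2 and at 161 to 220 in all other libraries, so the replicate lowest for the catalytic core was the highest for this activator.

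Of the 5 assembly chaperones of the core, none were called. Pomp, the maturation factor of the beta ring, had levels of 188, 163 and 169 FPKM in AE+Meis2, 137, 138 and 151 in AE9a+Meis2, and 124 and 139 in AE9a. Its AE+Meis2 libraries were above all others, by 0.28 ± 0.15 against AE9a+Meis2 (limma adjusted p = 0.74) and 0.39 ± 0.17 against AE9a (adjusted p = 0.83). Of all genes, 7% and 9.96% separated upward in these comparisons, and the share that did so in both was not computed. The other chaperones with the smallest p were Psmg4, at -0.30 ± 0.23 and -0.31 ± 0.26 in the comparisons of AE+Meis2, and Psmg2 and Psmg3, at -0.42 ± 0.39 and -0.19 ± 0.21 between AE9a+Meis2 and AE9a.

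Of 6 tested partners under other symbols, none were called. Adrm1, a ubiquitin receptor of the base, ranged over 34.0 to 43.9 FPKM in AE+Meis2 and 42.9 to 49.5 in AE9a+Meis2, a difference of -0.26 ± 0.17. AI314180, the mouse entry for the proteasome tether ECM29, was highest in AE+Meis2 replicate 2 (51.8) and differed by 0.52 ± 0.28 in the same comparison and by 0.57 ± 0.31 against AE9a. The ubiquitin ligase Ube3c, which acts at the proteasome, differed by 0.36 ± 0.20 between AE+Meis2 and AE9a+Meis2. Between AE9a+Meis2 and AE9a the deubiquitinase Usp14 differed by -0.34 ± 0.26 and Shfm1, the smallest lid subunit, by 0.42 ± 0.50.

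The transcription factors and processing enzymes that control proteasome genes held no called gene among 7 tested. Nfe2l1, the main inducer of the subunits, had levels of 23.1, 21.2 and 27.5 FPKM in AE+Meis2, 22.7, 19.8 and 17.1 in AE9a+Meis2, and 18.7 and 22.5 in AE9a, with groups that overlapped. In AE+Meis2 replicate 1, where the members were high, its level of 23.1 was below only the 27.5 of AE+Meis2 replicate 3. The part of Nfe2l1 in the member levels was not tested. Ddi2, the protease that activates it, was at 55.4 FPKM in AE9a+Meis2 replicate 1 and 17.6 to 31.0 elsewhere. Nfyb, a subunit of the CCAAT-binding factor, was at 21.5, 24.4 and 23.9 against 15.5, 19.8 and 15.5 between AE+Meis2 and AE9a+Meis2, a difference of 0.44 ± 0.18 (limma adjusted p = 0.68). Nfya, which encodes another of its subunits, differed by -0.33 ± 0.42 between AE9a+Meis2 and AE9a.

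Among genes of ubiquitin supply and delivery, none of those named here passed the threshold. Ubb, which encodes ubiquitin, was at 338, 411 and 340 FPKM in AE9a+Meis2, above 183 and 290 in AE9a and 240 to 308 in AE+Meis2. The differences were 0.65 ± 0.25 (limma adjusted p = 1) against AE9a and -0.41 ± 0.22 between AE+Meis2 and AE9a+Meis2. Rps27a, which encodes ubiquitin fused to a ribosomal protein, exceeded its AE9a+Meis2 level in AE+Meis2 by 0.55 ± 0.21 with no overlap (limma adjusted p = 0.67). Of all genes, 7% separated in the direction of Rps27a. In the direction of Ubb, 13.1% separated from AE9a and 6.49% from AE+Meis2. Uba1, the main ubiquitin-activating enzyme, exceeded its AE9a level in AE+Meis2 by 0.47 ± 0.23 (adjusted p = 0.90).

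The signalosome and the chaperonin were read in the same way for comparison. In the second comparison all 9 COP9 signalosome genes and all 8 chaperonin genes were on the higher side in AE+Meis2, with medians of 0.17 and 0.20 and none called, beside 0.25 for the alpha ring. With the library labelled AE+Meis2 replicate 1 left out, 8 of 9 and 6 of 8 were on that side, with medians of 0.19 and 0.10. The smallest p among them belonged to Cops3 (0.31 ± 0.17) and Cops4 (0.30 ± 0.17) and to Cct4 (0.33 ± 0.19) and Cct6a (0.27 ± 0.23). In AE9a+Meis2 against AE9a, 8 of 9 and 6 of 8 were lower, with medians of -0.12 and -0.22, while the core and regulatory medians were 0.043 and 0.022. In the library labelled AE+Meis2 replicate 1 the median deviations of the 2 complexes were 0.19 and 0.34, beside 0.302 for the proteasome core, so the proteasome was not alone in being high there.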

How the data were processed

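The deposited matrix held FPKM per gene symbol in 8 libraries, which the authors made with TopHat, Cufflinks and Cuffdiff on mm10, per the submitters' processing notes. The sources used here give no versions. Libraries were made with the Illumina TruSeq RNA kit from TRIzol RNA, per the labels' protocols. Differences were fitted with limma 3.58.1 in R 4.3.3 on log2(FPKM + 1), with an intensity trend and 1 coefficient per group over all 8 libraries. The 12565 genes with at least 1 FPKM in 2 libraries entered, and p-values were adjusted by Benjamini-Hochberg with a threshold of 0.05. The fit was tested on simulated data. Read totals are unknown: the most frequent ratio of low values put libraries at 12.2% to 66.0% of the depth of AE9a+Meis2 replicate 2, but it held for 2.97% to 9.03% of low genes. Coordinates are from GENCODE M21. The members and lists were chosen with earlier results of these data known. Named genes were the 3 smallest p in each particle and the 2 smallest in each list, per comparison, besides the catalytic and immunoproteasome subunits, Psmd14, Psmd4, Psma8 and Psmb11. Psma4, Psma2, Psmb1, Psmd8, Psmd10, Psmd11 and the promoters shown were picked after their values were seen. One result of the ubiquitin list is not reported here.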

Additional observations from a re-analysis of the deposited data

How the results depend on the processing

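No member was called under any alternative, and the smallest adjusted p of a named member over all of them was 0.81 in the first comparison (AE9a+Meis2 against AE9a), 0.37 in the second (AE+Meis2 against AE9a+Meis2) and 0.68 in the third (AE+Meis2 against AE9a). The medians of the particles depended on the scaling. Quantile scaling gave -0.176 for the core in the first comparison, -0.1124 for the regulatory particle in the second comparison, and -0.2835 and -0.2012 for core and regulatory particle in the third comparison. Rescaling without small RNAs gave -0.2061 and -0.2266 in the second comparison (17 genes called), and -0.2857 and -0.2917 in the third comparison. The median of all genes moved with it, to -0.12, -0.20 and -0.30 in the 3 comparisons, and relative to it the core medians were 0.05, -0.003 and 0.02.

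Leaving out single libraries gave core medians of -0.02 to 0.09 in the first comparison, -0.11 to 0.16 in the second comparison and -0.02 to 0.20 in the third comparison, and regulatory medians of -0.08 to 0.15, -0.10 to 0.10 and -0.06 to 0.15. The count of all genes called was 6 in the first comparison, with 2 to 9 when single libraries were left out (2 without AE9a replicate 1), 0 without small RNAs and the 444 genes listed at 0 in every library of 1 group, and 3 without the 2 libraries with silent-gene values. It was 5 in the second comparison, with 6 to 23 when single libraries were left out (23 without AE+Meis2 replicate 3) and 0 without small RNAs and genes listed at 0. It was 4 in the third comparison, with 1 to 10 when single libraries were left out (10 without AE+Meis2 replicate 3, 1 without AE+Meis2 replicate 1 or AE9a replicate 1), 1 with no filter, 0 without small RNAs and genes listed at 0, and 2 when only those groups were fitted. The cause was not tested, except that the alternatives without genes listed at 0 remove called genes by construction.

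Same-numbered libraries of different groups deviated together with correlations of -0.025 to 0.133, and differently numbered ones with -0.101 to 0.083. Deviations from a mean of 2 or 3 libraries are tied to each other, so these values cannot decide whether the numbers pair the samples. With the replicate number as a block, 2, 5 and 0 genes were called in the 3 comparisons and no member. The log2 ratios of immunoproteasome to constitutive subunits were recomputed with another pseudocount and with libraries left out. The difference for Psmb8 over Psmb5 in the first comparison (0.28) was 0.60 without AE9a replicate 1 and -0.04 without AE9a replicate 2, and that for Psmb9 over Psmb6 in the second comparison (0.24) was -0.01 without AE+Meis2 replicate 3. The unknown depth and 2 or 3 libraries a group limit every result.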
